A study of Mus musculus with 12 samples.

Results

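Niacin, the nicotinic acid form of vitamin B3, acts on the receptor Hcar2, and its flushing response runs through prostaglandins. The genes described here are Hcar2, its neighbour Hcar1, and Ptgds, Ptgs1, Ptgs2, Ptges, Ptger3, Ptger4, Ptgdr and Ptgir, in sciatic nerves of mice with and without the phosphatase gene Mtmr2. They were chosen by gene symbol. All 10 of the 10 symbols were found among the 43432 genes of the count table, 9 of the 10 had enough counts to be among the 17257 genes tested, and Ptgdr did not.

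RNA was sequenced from 12 sciatic nerves, 1 per mouse, collected at 1 month of age. Of these, 4 came from control mice carrying both wild-type copies of the gene (Mtmr2 wt/wt), 4 from knockout mice lacking it (Mtmr2 -/-, called Mtmr2 KO) and 4 from Mtmr2 KO mice given niacin (Mtmr2 KO niacin). Loss of MTMR2 in people causes Charcot-Marie-Tooth neuropathy type 4B1, a disease of myelin in peripheral nerves, and the Mtmr2 KO mouse, made on a 129/SvPas background, is its model. Niacin was injected into the peritoneum at 120 mg/kg from postnatal day 10 (P10) to P21 and then given by gavage as a slow-release formulation, Niacin-SR, from P21 to P30. The labels list no treatment for the other 2 groups, although the study's text describes the Mtmr2 KO mice compared with niacin as given vehicle. They include no niacin-treated control nerves, so an effect of niacin can be read only in knockout nerves. Each group held 3 males and 1 female, and no library is labelled with its sex. Libraries are named by group and by the number in their label, 4497 to 4500 for control, 4501 to 4504 for Mtmr2 KO and 4505 to 4508 for Mtmr2 KO niacin.

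HCAR2 couples to inhibitory G proteins and also answers to the ketone body beta-hydroxybutyrate. On adipocytes it holds back the release of fatty acids, and on macrophages and skin cells it starts the making of the prostaglandins PGD2 and PGE2, which widen skin vessels and give the niacin flush. HCAR1 is the related lactate receptor of adipocytes. Prostaglandins are made from arachidonic acid by the cyclooxygenases PTGS1 and PTGS2, then by end synthases such as PTGDS for PGD2 and PTGES for PGE2. They act on neighbouring cells through G protein-coupled receptors, among them PTGER3 and PTGER4 for PGE2, PTGDR for PGD2 and PTGIR for prostacyclin. Sciatic nerve holds, beside Schwann cells and axons, the adipocytes, mast cells, macrophages and vessels of its sheaths, and prostaglandin D2 made by PTGDS is known for a part in peripheral myelination.

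The libraries held 20763951 to 33191106 counts each. Of the Schwann cell markers, Prx, the myelin sheath protein periaxin, stood at 5476 to 6618 CPM in control, 4951 to 7658 in Mtmr2 KO and 3411 to 5754 in Mtmr2 KO niacin, so the nerve label fits this marker. CPM is the count of a gene relative to its library's total, here after scaling of the totals by trimmed mean (TMM) factors. Mtmr2 stood at 161, 130, 128 and 137 CPM in control, at 71.6, 84.7, 143 and 69.5 in Mtmr2 KO and at 66.8, 68.5, 68.3 and 73.5 in Mtmr2 KO niacin. The library labelled Mtmr2 KO 4503 therefore lay inside the control range for the targeted gene. Counts cover the whole gene and cannot show whether a deleted stretch is missing. Markers of skeletal muscle summed to 2778 and 2611 CPM in Mtmr2 KO niacin 4506 and 4507, against 8.65 to 76.5 CPM in the other 10 libraries. The differences of Hcar2, Hcar1 and Ptger3, and of the list and marker genes called by edgeR, are given below with these libraries and without Mtmr2 KO 4503 or without Mtmr2 KO niacin 4506 and 4507. The nerves were sequenced whole, so fewer cells of a type and less RNA per cell cannot be told apart.

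Of the 9 genes tested, Ptger3, the PGE2 receptor that lowers cyclic AMP, was the one that passed the test. It fell 3.87-fold in Mtmr2 KO against control and was 2.96-fold higher in Mtmr2 KO niacin than in Mtmr2 KO. Against control, 1 of 9 was called lower, where 0.22% of all 17257 genes were called lower and 0.267% in either direction. Against Mtmr2 KO, 1 of 9 was called higher in Mtmr2 KO niacin, where 0.695% of all genes were called higher and 1.43% in either direction. A call here is an adjusted p under 0.05 in the quasi-likelihood test of edgeR, adjusted over all tested genes by the method of Benjamini and Hochberg. Between Mtmr2 KO niacin and control edgeR called 0 of 9 and 0 of 17257 genes, 0.0%, while 2 of the 9 and 24.7% of all genes had an unadjusted p under 0.05. At an unadjusted p under 0.05 stood 5 of the 9 in Mtmr2 KO against control, where 17.2% of all genes did, and 3 of the 9 in Mtmr2 KO niacin against Mtmr2 KO, where 20.1% did.

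Other tools differed in how many they called. In Mtmr2 KO against control, DESeq2 over all 12 libraries called 3 of the genes (Hcar1, Ptger3 and Ptgir, with 2.01% of all its genes called), DESeq2 over the 8 libraries compared 2 (1.29%), edgeR over those 8 called 0 (0.0%), limma-voom 2 (0.626%) and edgeR with no filter on low counts 2 (1.01%), the pairs being Hcar1 and Ptger3. In Mtmr2 KO niacin against Mtmr2 KO, the same fits called 1 (3.13%), 1 (1.34%), 0 (0.0%), 1 (11.6%) and 1 (1.69%), in each case Ptger3. In Mtmr2 KO niacin against control they called 1 (3.12%), 3 (18.0%), 2 (33.9%), 2 (42.4%) and 0 (0.918%). Hcar1 was among the calls of the first 4 of these, and Hcar2 was among those of DESeq2 and edgeR over the 8 libraries and of limma-voom.

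**Figure D1:**
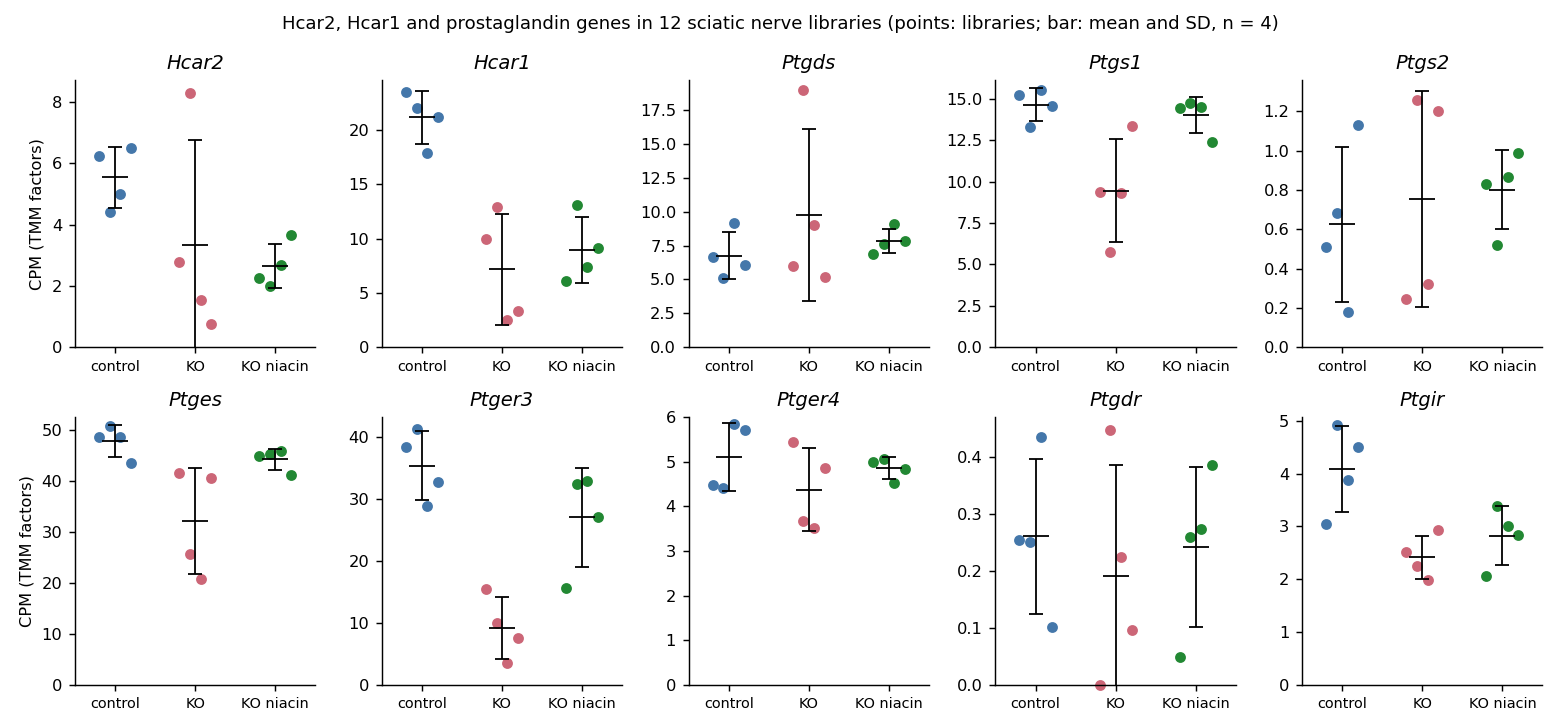
Each panel plots 1 gene in CPM, scaled by trimmed mean (TMM) factors, on an axis from 0 (an SD bar that would pass below 0 is cut there). Points are the 12 libraries in the 3 groups, and bars give the mean and SD (n = 4). Ptger3 separates Mtmr2 KO (3.59 to 15.5 CPM) from control (29.0 to 41.4) and from Mtmr2 KO niacin (15.7 to 32.9), and Hcar1 separates both knockout groups from control.

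Levels differed widely between the genes in control nerves. Per kilobase of exon, the scale on which genes can be compared, Ptges was highest at 12.2 ± 0.795 CPM per kb (SD, n = 4), above all but 21.7% of the 17147 tested genes with a known length. Hcar1 followed at 6.44 ± 0.730, Ptger3 at 6.22 ± 0.983, Ptgds at 4.10 ± 1.04, Ptgs1 at 3.77 ± 0.257 and Hcar2 at 2.87 ± 0.509 CPM per kb. The prostacyclin receptor Ptgir stood at 1.23 ± 0.244, Ptger4 at 0.769 ± 0.116, Ptgs2 at 0.137 ± 0.0860 and Ptgdr at 0.0819 ± 0.0428 CPM per kb. The libraries of neighbours in this order overlapped for Hcar1 and Ptger3, Ptger3 and Ptgds, Ptgds and Ptgs1, and Ptgs2 and Ptgdr, so these pairs do not differ beyond their spread. Of the 2 cyclooxygenases, the constitutive Ptgs1 was thus far above the inducible Ptgs2, whose libraries overlapped those of the barely counted Ptgdr.

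**Figure D2:**
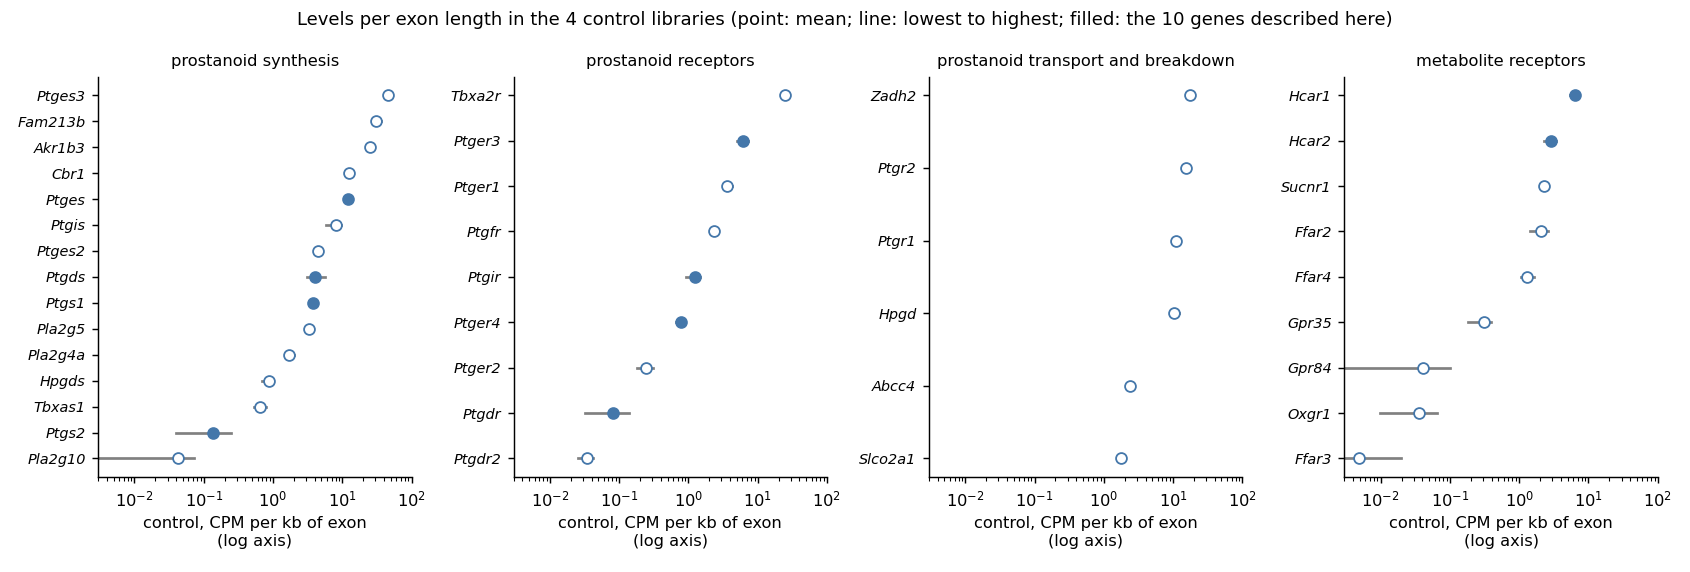
Mean level in the 4 control libraries, in CPM per kb of exon on a log axis, for the genes of 4 lists. Lines run from the lowest to the highest library and reach the left edge where a library was at 0, filled points are the 10 genes described, and Ffar1, at 0 counts, is left out. Ptges3 (45.6) and Tbxa2r (25.1) top their lists. By mean Hcar1 (6.44) and Hcar2 (2.87) top the metabolite receptors, with the line of Hcar2 overlapping that of Sucnr1.

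Hcar2 lies on chromosome 5 at chr5:123863570-123865499 (GRCm38, minus strand), with Hcar1 11236 bases further on at chr5:123876736-123880020 on the same strand. No stretch of 75 bases was shared between the annotated transcripts of either gene and those of any other gene, so reads of the pair can be told apart. Hcar2 was counted at 6.22, 4.42, 5.01 and 6.49 CPM in control. In Mtmr2 KO it was at 2.79, 8.30, 1.54 and 0.770 CPM and in Mtmr2 KO niacin at 2.25, 1.99, 2.70 and 3.65 CPM. Every Mtmr2 KO niacin library lay below every control library, whereas Mtmr2 KO spread 10.8-fold, with 4502 above all controls and the other 3 libraries below them. The fitted difference of Mtmr2 KO niacin from control was −1.06 on the log2 scale (SE 0.51, 95% interval −2.17 to 0.04, edgeR adjusted p = 0.215), a 2.09-fold lower level. An exact permutation test over the 8 libraries gave p = 0.0286 (two-sided), the smallest that 4 against 4 allows, and 16.6% of all genes also had every Mtmr2 KO niacin library below every control. Mtmr2 KO differed from control by −0.73 (SE 0.51, edgeR adjusted p = 0.474), and without Mtmr2 KO 4502 by −1.69 (adjusted p = 0.0520). Mtmr2 KO niacin differed from Mtmr2 KO by −0.33 (SE 0.52, 95% interval −1.44 to 0.79, edgeR adjusted p = 0.753), a value whose sign turned to 0.61 without Mtmr2 KO 4502. Without Mtmr2 KO 4503 the Hcar2 differences of Mtmr2 KO from control and of Mtmr2 KO niacin from Mtmr2 KO were −0.49 and −0.57 (edgeR adjusted p = 0.623 and 0.678). Without Mtmr2 KO niacin 4506 and 4507, that of Mtmr2 KO niacin was −0.18 from Mtmr2 KO and −0.94 from control (edgeR adjusted p = 0.933 and 0.454). With 1 library left out at a time, the difference of Mtmr2 KO niacin from control ranged from −1.26 to −0.97 and passed in 1 of 12 fits, that without Mtmr2 KO 4502 (edgeR adjusted p = 0.0252, against 0.353 at the highest).

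Hcar1, the lactate receptor, was below control in every knockout library. It stood at 23.5, 22.0, 17.9 and 21.3 CPM in control and at 9.96, 12.96, 2.53 and 3.32 CPM in Mtmr2 KO. In Mtmr2 KO niacin it stood at 6.12, 13.1, 7.40 and 9.18 CPM. All 8 knockout libraries, with niacin or without, lay below all 4 controls, which 5.46% of all genes did in Mtmr2 KO and 16.6% in Mtmr2 KO niacin, and the 2 knockout groups overlapped. Mtmr2 KO differed from control by −1.56 (SE 0.42, 95% interval −2.45 to −0.66, edgeR adjusted p = 0.104), 2.95-fold lower. Mtmr2 KO niacin differed from control by −1.24 (SE 0.41, 95% interval −2.13 to −0.35, edgeR adjusted p = 0.122), 2.36-fold lower. Neither passed in this fit, although the first passed in DESeq2 over all 12 libraries (adjusted p = 0.00615) and in limma-voom (adjusted p = 0.0293). The second passed in DESeq2 over all 12 libraries or 8, in edgeR over 8 and in limma-voom. Those fits called 3.12%, 18.0%, 33.9% and 42.4% of all genes in that comparison. With 1 library left out at a time, the first ranged from −2.01 to −1.27 (edgeR adjusted p = 0.0487 to 0.245) and the second from −1.51 to −1.10 (edgeR adjusted p = 0.0230 to 0.263). Each passed in 1 of 12 such fits, that without Mtmr2 KO 4502, where they were −2.01 (edgeR adjusted p = 0.0487) and −1.26 (edgeR adjusted p = 0.0230). Without Mtmr2 KO 4503 the first was −1.27 (edgeR adjusted p = 0.133), and without Mtmr2 KO niacin 4506 and 4507 the second was −1.50 (edgeR adjusted p = 0.254). Between Mtmr2 KO niacin and Mtmr2 KO the difference was 0.32 (SE 0.42, 95% interval −0.57 to 1.21, edgeR adjusted p = 0.700).

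The cyclooxygenase Ptgs1 stood at 15.2, 13.3, 15.5 and 14.5 CPM in control, 9.37, 5.74, 9.29 and 13.4 in Mtmr2 KO and 14.4, 14.7, 14.5 and 12.4 in Mtmr2 KO niacin. It was thus narrow in both outer groups and wide in Mtmr2 KO, where 1 library, 4504, reached the control range and the other 3 lay below it. Of its stretches of 75 bases, 1.99% also occur in another annotated gene. The difference of Mtmr2 KO from control was −0.63 (SE 0.20, edgeR adjusted p = 0.144) and that of Mtmr2 KO niacin from Mtmr2 KO was 0.57 (SE 0.20, edgeR adjusted p = 0.137). With 1 library left out at a time, the first ranged from −0.85 to −0.46 (edgeR adjusted p = 0.0353 to 0.326) and the second from 0.38 to 0.78 (edgeR adjusted p = 0.0395 to 0.302). Each passed in 1 of 12 such fits, that without Mtmr2 KO 4504, the library nearest to the other groups, where they were −0.85 and 0.78. The inducible Ptgs2 ranged from 0.182 to 1.13 CPM in control, from 0.244 to 1.26 in Mtmr2 KO and from 0.520 to 0.987 in Mtmr2 KO niacin, on 5 to 33 counts a library. Its differences were 0.22, 0.13 and 0.35 for the 3 comparisons (Mtmr2 KO against control, Mtmr2 KO niacin against Mtmr2 KO, and Mtmr2 KO niacin against control). The first had a 95% interval of −1.0 to 1.44.

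Of the end synthases, Ptges, the inducible PGE2 synthase, was counted at 48.7, 50.8, 48.7 and 43.5 CPM in control, 41.6, 25.7, 20.8 and 40.5 in Mtmr2 KO and 44.9, 45.2, 45.8 and 41.2 in Mtmr2 KO niacin. All Mtmr2 KO libraries lay below all controls, while Mtmr2 KO niacin overlapped both other groups. Ptges differed by −0.58 in Mtmr2 KO against control (SE 0.19, edgeR adjusted p = 0.159) and by 0.46 in Mtmr2 KO niacin against Mtmr2 KO (SE 0.19, edgeR adjusted p = 0.192). Ptgds, the PGD2 synthase, ranged from 5.14 to 9.15 CPM in control and from 6.91 to 9.05 in Mtmr2 KO niacin. In Mtmr2 KO it stood at 5.96, 18.9, 9.01 and 5.20 CPM, with 4502 alone above every other library. Its fitted difference of Mtmr2 KO from control, 0.53 (SE 0.34, edgeR adjusted p = 0.436), was −0.0050 without 4502.

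Ptger3 lies at chr3:157566892-157645888 (GRCm38, plus strand). The 250 bases before its start in RefSeq (GRCm38.p6, chr3:157566626-157566875) and before that of Hcar1 (chr5:123880004-123880253, minus strand) are shown because these were the genes with the largest differences between groups. Capitals mark matches to the GC box GGGCGG on either strand, CCGCCC being its reverse.
Ptger3: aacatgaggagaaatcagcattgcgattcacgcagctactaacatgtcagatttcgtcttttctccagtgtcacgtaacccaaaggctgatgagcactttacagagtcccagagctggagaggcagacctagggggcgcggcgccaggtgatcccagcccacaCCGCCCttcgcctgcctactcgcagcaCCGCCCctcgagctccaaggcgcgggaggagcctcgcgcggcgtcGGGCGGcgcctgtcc
Hcar1: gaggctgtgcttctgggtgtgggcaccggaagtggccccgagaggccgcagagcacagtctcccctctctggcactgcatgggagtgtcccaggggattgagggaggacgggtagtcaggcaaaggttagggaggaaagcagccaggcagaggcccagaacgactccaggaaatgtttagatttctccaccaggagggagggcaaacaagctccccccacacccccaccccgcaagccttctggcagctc
The Ptger3 window held 3 such matches and the Hcar1 window 0, where 32.7% of 32851 promoter windows of this length held at least 1. Both windows held 0 matches to the nuclear receptor half-site AGGTCA, the cyclic AMP response half-site TGACG, the TATA box TATAAA, the CCAAT box CCAAT and the E-box CACGTG, searched on both strands, which 14.02%, 17.8%, 12.4%, 33.8% and 6.02% of windows held. RefSeq windows were matched for 9 of the 10 genes, and Hcar2 was not among them.

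Ptger3 was counted at 38.5, 41.4, 29.0 and 32.8 CPM in control, at 15.5, 9.999, 3.59 and 7.50 in Mtmr2 KO and at 15.7, 32.5, 32.9 and 27.2 in Mtmr2 KO niacin. Every Mtmr2 KO library lay below every library of both other groups. Mtmr2 KO niacin 4505 at 15.7 CPM was barely above Mtmr2 KO 4501 at 15.5, and the other 3 Mtmr2 KO niacin libraries reached or neared the control range. The difference of Mtmr2 KO from control was −1.95 (SE 0.35, 95% interval −2.70 to −1.20, edgeR adjusted p = 0.0448). That of Mtmr2 KO niacin from Mtmr2 KO was 1.57 (SE 0.35, 95% interval 0.82 to 2.31, edgeR adjusted p = 0.0458). Both comparisons share the 4 Mtmr2 KO libraries, so the fall and the rise are not independent. Mtmr2 KO niacin differed from control by −0.39 (SE 0.33, 95% interval −1.10 to 0.33, edgeR adjusted p = 0.472), and a p that misses the threshold does not show that the 2 groups were alike.

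Both Ptger3 calls lay close to the threshold, although neither difference changed sign in the fits that follow. With 1 library left out at a time, the Mtmr2 KO difference ranged from −2.35 to −1.68 and passed in 4 of 12 fits, those without Mtmr2 KO 4501, 4502 or 4504 or Mtmr2 KO niacin 4505. It missed without any of the controls 4497, 4498, 4499 and 4500 (adjusted p = 0.101 to 0.132), without Mtmr2 KO 4503 (0.0633) and without Mtmr2 KO niacin 4506, 4507 or 4508 (0.0550 to 0.0663). The niacin difference ranged from 1.29 to 1.96 and passed in 3 of 12, those without Mtmr2 KO 4501 or 4502 or Mtmr2 KO niacin 4505. It missed without any control (0.0675 to 0.0737), without Mtmr2 KO 4503 (0.0905) or 4504 (0.0587) and without Mtmr2 KO niacin 4506 (0.0812), 4507 (0.164) or 4508 (0.0969). Without both libraries rich in muscle transcripts, 4506 and 4507, it was 1.21 (edgeR adjusted p = 0.306) and the Mtmr2 KO difference −1.97 (edgeR adjusted p = 0.0689).

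**Figure D3:**
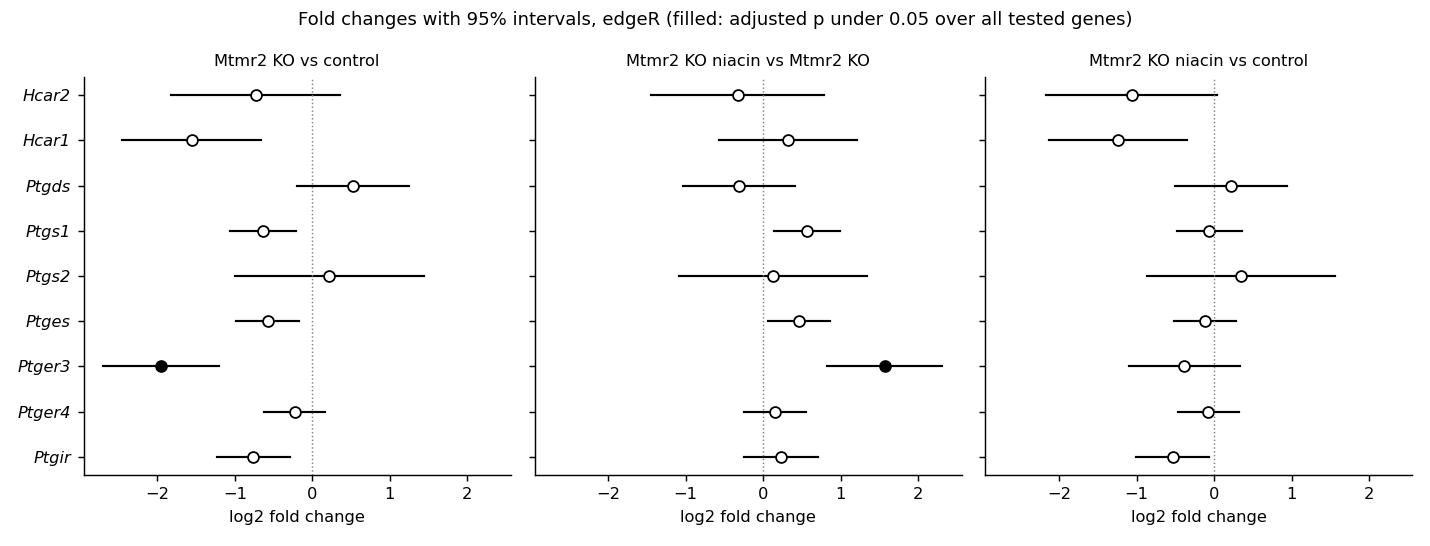
Log2 fold changes of the 9 tested genes with 95% intervals in the 3 comparisons, from edgeR over all 12 libraries. Filled points have an adjusted p under 0.05 over all tested genes, which are Ptger3 in Mtmr2 KO against control (−1.95) and in Mtmr2 KO niacin against Mtmr2 KO (1.57).

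The other prostaglandin receptors were lower in level and did not pass. Ptgir, the prostacyclin receptor, stood at 3.06, 4.93, 3.88 and 4.51 CPM in control, 2.51, 2.24, 1.99 and 2.93 in Mtmr2 KO and 2.06, 3.38, 3.02 and 2.83 in Mtmr2 KO niacin. All 4 Mtmr2 KO libraries were below all controls, with a difference of −0.76 (SE 0.22, edgeR adjusted p = 0.119), and Mtmr2 KO niacin differed from Mtmr2 KO by 0.23 (SE 0.22, edgeR adjusted p = 0.592). Ptger4, the PGE2 receptor that raises cyclic AMP, ranged from 4.42 to 5.84 CPM in control, from 3.53 to 5.43 in Mtmr2 KO and from 4.52 to 5.07 in Mtmr2 KO niacin. Its differences were −0.23, 0.15 and −0.07 for Mtmr2 KO against control, Mtmr2 KO niacin against Mtmr2 KO and Mtmr2 KO niacin against control, each with an SE of 0.18. Ptger4 shares 82 of its 6648 exon bases with Ttc33 on the opposite strand and 1015 with the pseudogene Gm15937, and whether the counting used strand is not stated in the sources at hand. Ptgdr, the PGD2 receptor, had 0 to 12 counts a library, 70 in all, and was not tested. It also shares 705 of 3187 exon bases with the opposite-strand pseudogene Gm16976.

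Taking the 9 together, 7 had a negative sign in Mtmr2 KO against control, with a median of −0.63 where all tested genes had a median of 0.03, and 4 had Mtmr2 KO libraries all below the controls, as 5.46% of all genes did. The same 9 had 7 positive signs in Mtmr2 KO niacin against Mtmr2 KO, with a median of 0.23 against −0.04 over all genes, and 1 was without overlap, as for 3.6% of all genes in that direction. Against control, Mtmr2 KO niacin had a median of −0.11 over the 9 against 0.02 over all genes, and 2 of 9 had every Mtmr2 KO niacin library below every control, as 16.6% of all genes did. Since the comparisons share libraries, these counts describe the same 12 nerves.

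The wider pathway, from lists of prostanoid and receptor genes, held 1 further call in edgeR over all 12 libraries. Slco2a1, which carries prostaglandins into cells for breakdown, stood at 22.6, 25.3, 25.5 and 21.2 CPM in control, 11.4, 6.99, 13.7 and 10.2 in Mtmr2 KO and 9.85, 14.3, 14.1 and 8.19 in Mtmr2 KO niacin. For Slco2a1, all 8 knockout libraries lay below all controls, which 5.46% of all genes did in Mtmr2 KO and 16.6% in Mtmr2 KO niacin. It fell by 1.16 on the log2 scale in Mtmr2 KO (SE 0.21, edgeR adjusted p = 0.0448), differed by 0.13 between Mtmr2 KO niacin and Mtmr2 KO (SE 0.21, edgeR adjusted p = 0.757), and by −1.03 between Mtmr2 KO niacin and control (SE 0.21, edgeR adjusted p = 0.0833). The fall in Mtmr2 KO was 1 call among the 6 genes of transport and breakdown, where 0.22% of all genes were called lower. Of the 6, 3 had an unadjusted p under 0.05, as 17.2% of all genes did. The Slco2a1 fall missed without Mtmr2 KO 4503 (−1.31, edgeR adjusted p = 0.0633) and without Mtmr2 KO niacin 4506 and 4507 (−1.18, edgeR adjusted p = 0.0571). Slco2a1 is also known from endothelium, whose 6 markers Pecam1, Cdh5, Kdr, Tie1, Emcn and Cldn5 summed to 466 to 511 CPM in control, 201 to 578 in Mtmr2 KO and 223 to 353 in Mtmr2 KO niacin. None of these markers was at 0 in any library. Of the 6, edgeR called 0 in each comparison, and 0.0% of all genes in the third, Mtmr2 KO niacin against control. At an unadjusted p under 0.05 stood 2, 1 and 4, where 17.2%, 20.1% and 24.7% of all genes did. DESeq2 over all 12 libraries called 0, 1 (Cldn5) and 3 (Cdh5, Tie1 and Cldn5), against 2.01%, 3.13% and 3.12% of all its genes. Limma-voom called 0, 1 and 4, against 0.626%, 11.6% and 42.4% of all genes. The part of these markers in the Slco2a1 result was not tested.

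In the synthesis list, 14 of 15 genes were tested and edgeR called 0 of them in each comparison, with 5, 7 and 1 at an unadjusted p under 0.05 for Mtmr2 KO against control, Mtmr2 KO niacin against Mtmr2 KO and Mtmr2 KO niacin against control, where 17.2%, 20.1% and 24.7% of all genes stood. DESeq2 over all 12 libraries called 1 (Ptgis), 1 (Ptges2) and 0, against 2.01%, 3.13% and 3.12% of all its genes. Limma-voom called 0, 2 and 5, against 0.626%, 11.6% and 42.4% of all genes, and these shares are the background of its counts and those of DESeq2 in the lists that follow. Their median difference was −0.16, 0.38 and 0.14. The most abundant were Ptges3, a PGE2 synthase that is also the co-chaperone p23, at 45.6 CPM per kb in control, Fam213b, a prostamide and PGF synthase, at 30.9, and Akr1b3, aldose reductase, which also makes PGF, at 25.0. Ptgis, the prostacyclin synthase, differed by −0.70 in Mtmr2 KO against control (SE 0.18, edgeR adjusted p = 0.0993) and by 0.49 in Mtmr2 KO niacin against Mtmr2 KO (SE 0.18, edgeR adjusted p = 0.165). Ptges2 differed by −0.24 and 0.38 (SE 0.11 for each, edgeR adjusted p = 0.285 and 0.0913). Pla2g4a, the phospholipase that frees arachidonic acid, differed by −0.41 and 0.86 (SE 0.33 for each, edgeR adjusted p = 0.547 and 0.175).

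Among the 9 prostanoid receptors, 7 were tested, and edgeR called 1 (Ptger3), 1 (Ptger3) and 0, with 2, 2 and 2 at an unadjusted p under 0.05 and medians of −0.20, 0.15 and −0.25 in the 3 comparisons. Over all genes 0.267%, 1.43% and 0.0% were called, and 17.2%, 20.1% and 24.7% stood at an unadjusted p under 0.05. DESeq2 over all 12 libraries called 2 (Ptger3 and Ptgir), 2 (Ptger3 and Tbxa2r) and 1 (Tbxa2r), and limma-voom 1 (Ptger3), 3 (Ptger3, Ptgfr and Tbxa2r) and 2 (Ptgfr and Tbxa2r). Tbxa2r, the thromboxane receptor, was the most abundant at 25.1 CPM per kb in control, then Ptger3 and Ptger1, a further PGE2 receptor, at 3.59. Tbxa2r stood at 44.4 to 51.5 CPM in control, 22.6 to 72.9 in Mtmr2 KO and 14.8 to 31.9 in Mtmr2 KO niacin, and differed by −1.10 between the last 2 (SE 0.30, edgeR adjusted p = 0.0796). Every Mtmr2 KO niacin library lay below every control, as for 16.6% of all genes, with a difference of −1.02 (SE 0.30, edgeR adjusted p = 0.101). This difference passed in DESeq2 over all 12 libraries or 8, in edgeR over 8, in limma-voom and with no filter on low counts. Those fits called 3.12%, 18.0%, 33.9%, 42.4% and 0.918% of all genes in this comparison. Without Mtmr2 KO niacin 4506 and 4507 the 2 Tbxa2r differences were −1.31 and −1.25 (edgeR adjusted p = 0.284 and 0.247). The 2 receptors for PGD2, Ptgdr and Ptgdr2, were both too low to test, with 70 and 32 counts over all libraries. In the list of transport and breakdown, the reductases Zadh2, Ptgr2 and Ptgr1 were highest at 17.4, 15.4 and 11.1 CPM per kb, and edgeR called 1 (Slco2a1), 0 and 0 of 6, with 3, 2 and 2 at an unadjusted p under 0.05. The shares over all genes were again 0.267%, 1.43% and 0.0% called, and 17.2%, 20.1% and 24.7% at that unadjusted p. DESeq2 over all 12 libraries called 1, 0 and 1, each time Slco2a1, and limma-voom 1, 2 and 6.

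Of 10 receptors for metabolites, 6 were tested and edgeR called 0 in each comparison, with 2, 0 and 2 at an unadjusted p under 0.05, where 17.2%, 20.1% and 24.7% of all genes stood. DESeq2 over all 12 libraries called 1, 0 and 2 (against 2.01%, 3.13% and 3.12% of all its genes), and limma-voom 1, 0 and 3 (against 0.626%, 11.6% and 42.4%). Their medians were −0.73, 0.03 and −0.82. Hcar1 and Hcar2 had the highest means in control, before Sucnr1, the succinate receptor, at 2.27 CPM per kb. The control libraries of Hcar2 (2.29 to 3.36 CPM per kb) overlapped those of Sucnr1 (2.15 to 2.48) and Ffar2 (1.44 to 2.65). Ffar2, a receptor for short-chain fatty acids, stood at 4.03 to 7.38 CPM in control, 1.01 to 5.07 in Mtmr2 KO and 1.52 to 3.47 in Mtmr2 KO niacin. As for Hcar2 and for 16.6% of all genes, the Mtmr2 KO niacin libraries were all below the controls (−1.12, SE 0.40, edgeR adjusted p = 0.133). Ffar1 had 0 counts in all libraries, Ffar3 had 2 in all, and Oxgr1 and Gpr84 had 61 and 36.

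The inhibitory G protein subunits Gnai2, Gnai1 and Gnai3 stood at 112, 93.9 and 45.1 CPM per kb in control, while Gnao1, another such subunit, was at 1.14 and the arrestins Arrb2 and Arrb1 at 12.8 and 7.05. Over the list of 6 G proteins and arrestins edgeR called 0 in each comparison, with 0, 2 and 3 at an unadjusted p under 0.05, where 17.2%, 20.1% and 24.7% of all genes stood. DESeq2 over all 12 libraries called 0, 0 and 2 (against 2.01%, 3.13% and 3.12% of all its genes), and limma-voom 0, 0 and 5 (against 0.626%, 11.6% and 42.4%). Oxct1, which starts the use of ketone bodies, the natural ligands of HCAR2 among them, stood at 56.7 CPM per kb in control and differed by 0.06, 0.11 and 0.17 in the 3 comparisons (SE 0.19 for each, edgeR adjusted p = 0.888, 0.774 and 0.577).

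Hcar2, Hcar1 and Ptger3 are all known from adipocytes. Of the 8 adipocyte markers Adipoq, Plin1, Cidec, Cfd, Retn, Lep, Fabp4 and Pck1, 2 were called lower in Mtmr2 KO, where 0.22% of all genes were, Plin1 (−1.84, SE 0.32, edgeR adjusted p = 0.0448) and Lep (−2.03, SE 0.29, edgeR adjusted p = 0.0364). Lep was also called higher in Mtmr2 KO niacin than in Mtmr2 KO (1.84, SE 0.29, edgeR adjusted p = 0.0383). Without Mtmr2 KO 4503 these were −1.90, −1.89 and 1.70 and all missed (edgeR adjusted p = 0.0834, 0.0633 and 0.0686). Without Mtmr2 KO niacin 4506 and 4507 they were −1.86, −2.05 and 1.26, and Lep in Mtmr2 KO alone passed (edgeR adjusted p = 0.0689, 0.0285 and 0.276). The 8 summed to 3595, 3591, 2915 and 3752 CPM in control, 2055, 4691, 1923 and 807 in Mtmr2 KO and 2315, 3535, 4008 and 4596 in Mtmr2 KO niacin, none was at 0 in any library, and the sums of the 3 groups overlapped. Mtmr2 KO 4502 had the highest sum of all and Mtmr2 KO 4504 the lowest. Hcar2 followed this order inside Mtmr2 KO, at its highest in 4502 and its lowest in 4504. In Mtmr2 KO niacin 4506, 4507 and 4508, however, Hcar2 stood at 1.99 to 3.65 CPM beside sums of 3535 to 4596, where the controls had 4.42 to 6.49 CPM beside sums of 2915 to 3752.

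Ptger3 did not follow the adipocyte sum in Mtmr2 KO 4502, where it stood at 9.999 CPM, below every control, beside the highest sum. The markers in the sum were themselves divided there. Of the 8, 3 had every Mtmr2 KO library, 4502 included, below every control, as 5.46% of all genes did. Lep and Plin1 differed from control by −2.03 and −1.79 without 4502, against −2.03 and −1.84 with it. Hcar1 in Mtmr2 KO 4502 was at 12.96 CPM, also below every control. Ptgs1 was at its lowest of all 12 libraries there, 5.74 CPM, and at its highest within Mtmr2 KO in 4504, where the sum was lowest. Over the 12 libraries Pearson's r of log2 CPM with the log2 adipocyte sum was 0.80 for Hcar2, 0.67 for Hcar1, 0.62 for Ptger3 and −0.06 for Ptgs1. After each group's mean was taken off, r was 0.92, 0.69, 0.35 and −0.93. These describe 12 points that share the group differences, and the part of adipocyte content in any of the differences was not tested.

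**Figure D4:**
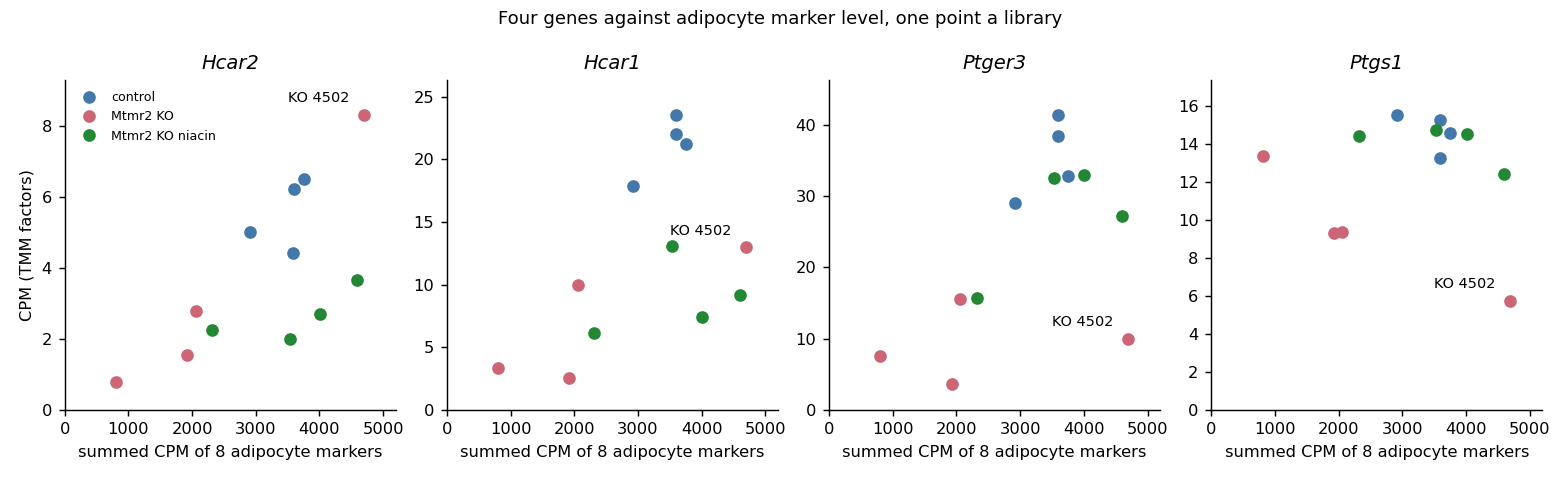
CPM of 4 genes against the summed CPM of 8 adipocyte markers, 1 point a library in 3 groups, on linear axes from 0. In Mtmr2 KO 4502, with the highest sum (4691), Hcar2 is at its highest (8.30 CPM) while Ptger3 (9.999) lies below every control and Ptgs1 (5.74) below every other library.

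Mast cells make PGD2 and carry PGE2 receptors. Of 8 markers 7 were tested, and 4 were called higher in Mtmr2 KO niacin than in Mtmr2 KO, the proteases Cpa3 (1.49), Cma1 (1.65), Mcpt4 (1.74) and Tpsb2 (1.40), where 0.695% of all genes were called higher. All 4 missed without Mtmr2 KO 4503 (1.28 to 1.55, edgeR adjusted p = 0.0686 to 0.0912) and without Mtmr2 KO niacin 4506 and 4507 (1.47 to 1.76, edgeR adjusted p = 0.276 for each). Of the other 3 tested, Ms4a2 differed by 1.33 (SE 0.34, edgeR adjusted p = 0.0684), and both others had the opposite sign. Kit, the receptor for stem cell factor, averaged 23.3 CPM in Mtmr2 KO and 7.99 in Mtmr2 KO niacin, with groups that overlapped (−1.55, SE 0.41, edgeR adjusted p = 0.0774), and it was called lower by DESeq2 over all 12 libraries and by limma-voom. Hdc, which makes histamine, differed by −0.21 (SE 0.36, edgeR adjusted p = 0.780). In Mtmr2 KO against control the 4 proteases differed by −1.42 to −0.98 (edgeR adjusted p = 0.0647 to 0.159). DESeq2 over all 12 libraries called these 4, against 2.01% of all its genes. Of the 7 tested, 5 had an unadjusted p under 0.05 there, as 17.2% of all genes did. In Mtmr2 KO niacin against control the 4 differed by 0.32 to 0.55, and limma-voom called all 7, against 42.4% of all genes. The 8 markers summed to 53.9 to 100.3 CPM in control, 48.0 to 68.7 in Mtmr2 KO and 88.0 to 104 in Mtmr2 KO niacin, and at most 1 was at 0 in any library. Hpgds, the PGD2 synthase of mast cells and macrophages, differed by 0.39 between Mtmr2 KO niacin and Mtmr2 KO (SE 0.26, edgeR adjusted p = 0.421). Macrophage markers summed to 416 to 466 CPM in control, 382 to 712 in Mtmr2 KO and 471 to 728 in Mtmr2 KO niacin. Of the 6, edgeR and DESeq2 over all 12 libraries called 0 in each comparison. At an unadjusted p under 0.05 in edgeR stood 0, 2 and 1, where 17.2%, 20.1% and 24.7% of all genes did. Limma-voom called 0, 0 and 3, against 0.626%, 11.6% and 42.4% of all genes. HCAR2 is also known from neutrophils, whose 7 markers summed to 2.52 to 3.96, 3.85 to 24.7 and 2.99 to 15.1 CPM in control, Mtmr2 KO and Mtmr2 KO niacin. Of the 7, 4 were tested, and edgeR called 0 in each comparison. At an unadjusted p under 0.05 stood 3, 0 and 1, where 17.2%, 20.1% and 24.7% of all genes did. DESeq2 over all 12 libraries called 4 (S100a8, S100a9, Retnlg and Mmp8), 0 and 0, against 2.01%, 3.13% and 3.12% of all its genes. Limma-voom called 0, 1 and 0, against 0.626%, 11.6% and 42.4% of all genes. The part of these cells in the results above was not tested.

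Perineurial markers (6) summed to 840 to 1162 CPM in control, 854 to 1229 in Mtmr2 KO and 666 to 886 in Mtmr2 KO niacin, and vascular smooth muscle markers (5) to 552 to 1230, 494 to 1493 and 576 to 1079. In each comparison edgeR called 0 of the 6 and 0 of the 5. At an unadjusted p under 0.05 stood 1, 3 and 2 perineurial and 2, 2 and 2 smooth muscle markers (17.2%, 20.1% and 24.7% of all genes). DESeq2 over all 12 libraries called 1 (Moxd1), 3 (Itgb4, Lypd2 and Moxd1) and 2 (Itgb4 and Tenm2) of the 6. Of the 5 it called 2 (Myh11 and Cnn1), 0 and 0 (2.01%, 3.13% and 3.12% of all its genes). Of the 5, 3 had every Mtmr2 KO library below every control, as 5.46% of all genes did. Of the 5 skeletal muscle markers 4, Acta1, Ckm, Mylpf and Tnnt3, were called higher in Mtmr2 KO niacin than in Mtmr2 KO (5.57 to 6.36). Of all genes, 0.695% were called higher there. All 4 missed without Mtmr2 KO 4503 (5.36 to 5.97, edgeR adjusted p = 0.104 to 0.107) and without Mtmr2 KO niacin 4506 and 4507 (1.38 to 1.65, edgeR adjusted p = 0.326 to 0.442). DESeq2 over all 12 libraries called all 5 in that comparison and in Mtmr2 KO niacin against control, where it called 3.13% and 3.12% of all its genes. The part of muscle in the Ptger3 result was not tested.

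Some of the 9 genes varied together across the 12 libraries, which share the group differences and sequencing depth. Pearson's r of log2 CPM was 0.83 for Hcar2 with Hcar1 (0.74 with group means taken off), 0.83 for Hcar1 with Ptger3 (0.80), 0.85 for Ptges with Ptger3 (0.62) and 0.79 for Ptgs1 with Ptges (0.51). Over all tested genes, the 3 most like Ptger3 were Acp5 (r = 0.99), Ces1d (0.96) and Igfals (0.95). For Hcar1 they were Rai2 (0.94), Igfals (0.90) and Paqr9 (0.90), so that Igfals was near both. For Hcar2 they were Map3k21 (0.91), Nhsl1 (0.90) and Tmem123 (0.87), and for Ptgs1 C1qtnf1 (0.96), Tmem119 (0.95) and Rem1 (0.95). Ptges was most like Daam1, Trabd2b and Ggcx (0.97 each), and Ptgds most like Gm8797 (0.93), Sypl (0.92) and Rpap2 (0.91). The values are a description over 12 libraries and 17257 genes, with no test.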

How the data were processed

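The authors sequenced polyA-selected RNA on a HiSeq (paired reads) and, per the labels, used CASAVA 1.9, STAR and DESeq2 with GRCm38/mm10. They deposited raw counts per gene, 1 column per library. No source at hand names the counting program, the annotation release or the strand setting. The deposited tables of DESeq2 results hold the authors' fold changes and p-values, which were not used. The symbol column of 1 of them named 42615 of the 43432 genes, and GENCODE M21 gave positions and exon lengths for 42548.

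Genes were filtered with edgeR (4.0.16, R 4.3.3), scaled by TMM and tested by the quasi-likelihood test over all 12 libraries with group as the factor, two-sided, with Benjamini-Hochberg adjustment over 17257 genes and a threshold of 0.05. CPM use the TMM factors, and log2 CPM a prior count of 2. Per kb means per kilobase of merged exon. Intervals are at the 95% level. Each SE is the fold change over the root of its F statistic. Alternatives used DESeq2 1.42.0, limma 3.58.1 (voom with sample quality weights), other scalings and filters, Xist as a covariate because no library is labelled with its sex, and each library left out. The procedure was tested on simulated data. Named were the 10 genes, Mtmr2, of each pathway and marker list the genes called and the 3 highest per kb in control, and the 3 genes most like each tested gene, not all of which are reported here. Genes named beyond this, such as Ptgis, Ptges2, Pla2g4a, Hpgds, Ffar2, Kit, Hdc, Ms4a2, Ptgfr and those at low counts, were chosen after their values were seen, except where a sentence names a whole marker list. The genes and lists were chosen with earlier results of these data known.

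Library totals were 20763951 to 33191106 counts. No 2 replicates agreed within sampling noise. Each library is 1 mouse, so p-values cover the spread between animals.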

Additional observations from a re-analysis of the deposited data

Results flagged for a closer look

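Of 30 groups of 4 libraries, 10 genes in 3 groups, 1 held a library far from the others. Ptgs1, the constitutive cyclooxygenase, stood at 12.4 CPM in Mtmr2 KO niacin 4508, where the nearest of the other 3 libraries was at 14.4 CPM. The gap was 0.856 of the group's range, above Dixon's critical value at the 95% level for 4 samples. Chance flags about 1 in 20 groups.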

How the results depend on the processing

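The 3 groups differ in their replicate numbers. No paired analysis was possible because no number is shared between groups. With 1 library left out, calls among the 9 genes ranged from 0 to 2 (Mtmr2 KO against control), 0 to 1 (Mtmr2 KO niacin against Mtmr2 KO) and 0 to 2 (Mtmr2 KO niacin against control), and over all genes from 0 to 457, 0 to 4180 and 0 to 3826. The 4180 and 3826 came without Mtmr2 KO 4502 and the 457 without Mtmr2 KO 4501. Against 46 calls over all genes and 1 of the 9 in Mtmr2 KO against control, DESeq2 over all libraries gave 680 and 3 (Hcar1, Ptger3, Ptgir), DESeq2 over 2 groups 427 and 2, edgeR over 2 groups 0 and 0 (2349 genes at an unadjusted p under 0.05), limma-voom 108 and 2, no filter 341 and 2, and Xist as a covariate 12 and 0. Without Mtmr2 KO niacin 4506 and 4507, chosen after seeing the data, these were 6 and 0. Against 246 and 1 in Mtmr2 KO niacin against Mtmr2 KO, the counts were 1059 and 1, 444 and 1, 0 and 0 (2249 unadjusted), 2007 and 1, 573 and 1, 50 and 0, and, without 4506 and 4507, 0 and 0. Against 0 and 0 in Mtmr2 KO niacin against control, they were 1057 and 1, 5777 and 3, 5586 and 2, 7311 and 2, and, with no filter, 311 and 0. Signs turned for genes that were not called. In Mtmr2 KO against control Ptgds was −0.15 in limma-voom and from −0.0050 (without Mtmr2 KO 4502) to 0.73 with 1 library left out, and Ptgs2 from −0.16 to 0.67, negative without control 4499 (−0.08), Mtmr2 KO 4502 (−0.16) or Mtmr2 KO 4504 (−0.11). In Mtmr2 KO niacin against Mtmr2 KO, Hcar2 was 0.63 in limma-voom and from −0.65 to 0.61 with 1 library left out, Ptgds 0.37 and from −0.51 to 0.20, both positive without Mtmr2 KO 4502, Ptger4 −0.015 in limma-voom, and Ptgs2 from −0.17 (without Mtmr2 KO 4501) to 0.49, and −0.14 without 4503. The cause was not tested. No gene's level in CPM moved by over 1 SD with library totals or DESeq2 size factors. Ptgs2 and Ptgdr are limited by depth, at 0 to 33 counts a library.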
